A study of Mus musculus with 8 samples.

Results

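Mitochondrial ribosomal proteins are encoded in the nucleus and make up the protein part of the mitochondrial ribosome (mitoribosome). The genes were taken as every probe set of the array table with exactly 1 platform gene symbol that begins with Mrpl or Mrps and a number, pseudogenes left out. Where a gene had several probe sets, the one with the highest mean log2 signal was kept. The rule found 77 genes among the 19938 genes tested. Of these, 50 encode proteins of the large subunit and 26 proteins of the small subunit. The remaining gene, Mrps36, keeps its ribosomal name but encodes a subunit of the 2-oxoglutarate dehydrogenase complex. One further gene of the family, Mrpl53, was represented only by a probe set with 2 symbols and was not used.

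The study lowered the promyelocytic leukaemia protein (PML), around which PML nuclear bodies form, in CGR8 cells, mouse embryonic stem cells (ESCs) that need no feeder layer. A stably expressed short hairpin RNA was delivered by a pLKO.1 lentivirus, with puromycin to select the infected cells. RNA was hybridised to Affymetrix MoGene 1.0 ST arrays, 2 in each of 4 groups and 8 in all. The groups were PML KD ESC and WT ESC at day 0, grown with leukaemia inhibitory factor (LIF), and PML KD EB and WT EB at day 4. EBs (embryoid bodies) are aggregates that differentiate without LIF, formed here in hanging drops for 2 days and then kept in suspension. All 4 groups are labelled as CGR8 cells, with C57BL/6 as background strain, 129P2/OlaHsd as donor strain and passages 5 to 13. The protocol also names viruses made with an empty vector, and the sources used here leave unstated whether the WT cells received them or how many clones the knockdown represents. They also leave unstated whether both arrays of a group had their own culture, so a p-value here rests on a spread between arrays that may be technical, and 2 arrays per group limit the precision.

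The mitoribosome translates the messenger RNAs of the mitochondrial genome, which all encode subunits of the oxidative phosphorylation complexes. It descends from a bacterial ribosome, so some of its proteins have bacterial counterparts while others are particular to mitochondria. All of its proteins are made in the cytosol and imported, and the particle is assembled on mitochondrial ribosomal RNA. In ESCs, which rely strongly on glycolysis, mitochondria are known to mature as the cells leave the pluripotent state.

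Signals are given as log2 of the array signal after quantile normalization over the 8 arrays, and differences are on the same log2 scale. The words rose, fell and changed are used where limma's adjusted p was under 0.05 over all 19938 genes, and each ± after a difference is its fitted SE. Pml itself had 11.17 and 11.08 in PML KD ESCs, against 11.59 and 11.58 in WT ESCs. At day 4 it had 10.52 and 10.67 in PML KD EBs, against 10.96 and 10.91 in WT EBs, so the target was lower in the knockdown at both days without overlap. The pluripotency factor gene Pou5f1 had 12.77 and 12.91 in PML KD ESCs, against 13.29 and 13.34 in WT ESCs. It fell by 0.47, Sox2 by 0.57, Klf4 by 0.54 and Nanog by 0.38, while Tdgf1 rose by 1.03, Fgf4 by 0.72 and Zfp42 by 0.27. Of 10 ESC markers 3 rose and 4 fell at day 0, and their summed signal lay at 16.28 to 16.30 in PML KD ESCs and at 16.21 to 16.25 in WT ESCs. The PML KD ESC arrays stood apart in 2 of the 3 Y-linked genes measured, while the third, Kdm5d, lay between 5.51 and 5.85 on all 8 arrays. Eif2s3y, a Y-linked translation factor gene, had 5.08 and 4.85 in PML KD ESCs, against 10.08 and 10.04 in WT ESCs, 9.98 and 9.86 in PML KD EBs, and 10.27 and 10.13 in WT EBs. Uty, another Y-linked gene, had 5.28 and 5.66 in PML KD ESCs, against 9.14 and 9.30 in WT ESCs, 9.14 and 9.02 in PML KD EBs, and 9.39 and 9.34 in WT EBs. From day 0 to day 4 in PML KD, Eif2s3y and Uty thus differed by 4.95 and 3.61. It is therefore in doubt whether the PML KD ESC and PML KD EB arrays come from the same cell line. Values of PML KD over time, and the difference of changes, compare the samples so labelled and may not follow 1 line through differentiation. At day 0 Eif2s3y and Uty also differed between PML KD and WT ESCs, by -5.09 and -3.75. At that day the knockdown and another difference between the lines cannot be told apart. The comparison at day 0, that over time in PML KD and the difference of changes rest on the PML KD ESC arrays and cannot be given without them. The comparison at day 4 and that over time in WT are also given without these arrays in the fit. The quantile normalization still used all 8 arrays, so only the estimated spread could change there, and not the differences. The members were among the brighter genes: their mean signal lay between the 28.8th and the 95.7th percentile of all genes, with a median at the 76.3rd.

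Promoters of 68 of the 77 genes were present in a RefSeq table of build GRCm38.p6, which held 74 promoters for them, each with 250 bases before the start site and 50 from it on. The following 6 show the range of these promoters, from genes with the largest differences to Mrps18a, whose signal barely differed between groups. Each line runs 5′ to 3′ from 240 bases before the start site to 20 bases from it on, and capitals mark matches, on either strand, to 3 motifs spelled out after the sequences. Mrpl50 lies at chr4:49521064-49521323, minus strand, Mrpl32 at chr13:14613018-14613277, minus strand, and Mrps6 at chr16:92058096-92058355, plus strand. Mrps21 lies at chr3:95871495-95871754, minus strand, Mrpl58 at chr11:115403512-115403771, plus strand, and Mrps18a at chr17:46110764-46111023, plus strand.
Mrpl50: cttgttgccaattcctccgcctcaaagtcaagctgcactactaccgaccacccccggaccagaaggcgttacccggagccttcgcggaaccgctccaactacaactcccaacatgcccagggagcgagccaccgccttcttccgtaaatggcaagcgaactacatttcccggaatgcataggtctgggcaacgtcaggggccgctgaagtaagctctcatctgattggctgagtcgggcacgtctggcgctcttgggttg
Mrpl32: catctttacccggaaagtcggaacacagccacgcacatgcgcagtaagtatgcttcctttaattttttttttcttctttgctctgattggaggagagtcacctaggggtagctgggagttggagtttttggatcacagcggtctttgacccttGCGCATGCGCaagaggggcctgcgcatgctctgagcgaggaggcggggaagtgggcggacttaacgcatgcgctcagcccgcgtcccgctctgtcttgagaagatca
Mrps6: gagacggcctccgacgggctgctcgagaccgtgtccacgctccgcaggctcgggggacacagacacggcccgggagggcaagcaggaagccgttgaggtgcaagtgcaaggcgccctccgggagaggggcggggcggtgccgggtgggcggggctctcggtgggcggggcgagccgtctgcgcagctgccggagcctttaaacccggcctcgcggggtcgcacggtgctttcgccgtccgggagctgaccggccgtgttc
Mrps21: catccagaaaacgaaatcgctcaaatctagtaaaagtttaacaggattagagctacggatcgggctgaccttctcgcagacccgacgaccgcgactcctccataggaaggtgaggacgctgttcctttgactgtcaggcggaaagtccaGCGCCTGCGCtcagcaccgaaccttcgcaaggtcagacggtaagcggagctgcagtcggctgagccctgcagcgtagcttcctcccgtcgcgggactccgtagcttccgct
Mrpl58: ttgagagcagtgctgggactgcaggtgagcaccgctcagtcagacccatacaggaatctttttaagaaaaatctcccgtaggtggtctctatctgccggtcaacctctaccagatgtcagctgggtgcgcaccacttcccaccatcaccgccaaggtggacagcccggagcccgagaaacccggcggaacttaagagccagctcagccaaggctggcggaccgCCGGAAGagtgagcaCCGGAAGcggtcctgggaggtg
Mrps18a: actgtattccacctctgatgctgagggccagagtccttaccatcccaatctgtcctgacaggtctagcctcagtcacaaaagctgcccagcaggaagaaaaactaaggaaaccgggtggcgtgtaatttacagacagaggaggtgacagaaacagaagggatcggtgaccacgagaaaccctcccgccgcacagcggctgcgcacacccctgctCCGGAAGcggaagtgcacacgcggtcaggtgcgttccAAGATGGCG

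The 3 capitalised motifs are the cores bound by the transcription factors NRF1 (GCGC and TGCGC around any 1 base), the ETS family (CCGGAAG) and YY1 (AAGATGGCG), searched on both strands. They share no overlapping letters in the sequences shown. Over the whole 300-base windows, the NRF1 core was found in 13 of the 74 member promoters (17.6%), against 4.60% of the 32851 promoters in the table and 6.91% of those of genes tested here. The ETS core was found in 25 member promoters (33.8%), against 8.86% of all promoters and 12.1% of those of genes tested. The YY1 core was found in 8 member promoters (10.8%), against 1.40% of all promoters and 1.93% of those of genes tested. Any of the 3 was found in 40 of the 68 genes and in 54.1% of the member promoters, against 13.6% of all promoters. Of 3 other motifs, CCAAT was found in 39.2% of member promoters against 37.4% of all, CACGTG in 9.46% against 7.15%, and TATAAA in 6.76% against 13.6%. A match is a description of the letters and not a measured binding site. As a description, the median difference between PML KD and WT at day 0 was -0.54 over the 25 genes with the ETS core and -0.38 over the 43 without. It was -0.36 over the 13 genes with the NRF1 core and -0.46 over the 55 without. For the YY1 core it was -0.33 over 8 genes with it and -0.45 over 60 without. By count, 19 of 25 genes with the ETS core fell and 36 of 43 without. For NRF1 the counts were 11 of 13 and 44 of 55, and for YY1 7 of 8 and 48 of 60.

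For 21 of the 68 genes (30.9%) a start site on the opposite strand lay within 250 bases upstream, back to back with their own. The share was 10.3% over the 15614 tested genes with a promoter in the table. Mrpl46 and Mrps11, which encode a mitochondria-particular protein of the large subunit and the counterpart of bacterial S11 in the small subunit, start 42 bases apart. At day 0 the fitted difference between PML KD and WT was -0.53 ± 0.08 for Mrpl46 and -0.55 ± 0.09 for Mrps11, and both fell. At day 4 Mrpl46 fell by 0.34 while Mrps11, at -0.04, did not pass. For 17 of the genes the neighbour was tested and was no member: at day 0 all 17 members had a difference below 0, and 11 of the 17 neighbours did, against 11376 of all 19938 genes.

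In undifferentiated cells the mitoribosomal protein genes were lower on the PML KD ESC arrays than on the WT ESC arrays almost throughout. Between PML KD and WT ESCs at day 0, 63 of the 77 genes fell and 2 rose, while 12 did not pass. Those 12, Mrpl1, Mrpl3, Mrpl9, Mrpl15, Mrpl17, Mrpl24, Mrpl28, Mrpl33, Mrpl55, Mrps10, Mrps16 and Mrps18a, had differences between -0.32 and 0.27. Over all genes tested, 27.0% fell and 17.0% rose, 43.9% in all. The median difference was -0.44 over the members and -0.06 over all genes. Both PML KD arrays lay below both WT arrays in 67 members, which held for 42.0% of all genes, and above both in 5, which held for 28.6% of all genes. The median over members stayed between -0.73 and -0.35 in the other settings, while the median of all genes moved with the scaling: it was 0.09 in the values as deposited and -0.14 once every array had been shifted to the same median. The split over all genes moved too, to 5477 risen and 4955 fallen genes as deposited and to 2032 risen and 7414 fallen after the shift, against 3380 and 5379 here. Over the members it became 0 risen and 67 fallen as deposited and 0 risen and 71 fallen after the shift. In the authors' workbook values 4 of 75 members rose and 44 fell, against 5117 risen and 5165 fallen of 24408 genes.

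Markers of other cell types also differed at day 0. Of 10 visceral endoderm markers 4 fell and 0 rose, with a summed signal of 10.61 to 10.67 in PML KD ESCs, against 11.09 to 11.18 in WT ESCs. Of 5 primitive streak and mesoderm markers 2 fell and 0 rose, at 9.23 to 9.32 in PML KD ESCs and 10.03 to 10.04 in WT ESCs. Of 6 fibroblast markers 2 rose and 0 fell, at 10.29 to 10.51 in PML KD ESCs and 10.22 to 10.24 in WT ESCs. Of 5 trophectoderm markers 1 fell and 0 rose, at 9.86 to 9.90 in PML KD ESCs and 9.90 to 9.95 in WT ESCs. The part of these cells in the members' differences was not tested, and in bulk RNA fewer cells of a type and less RNA per cell cannot be told apart.

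**Figure D1:**
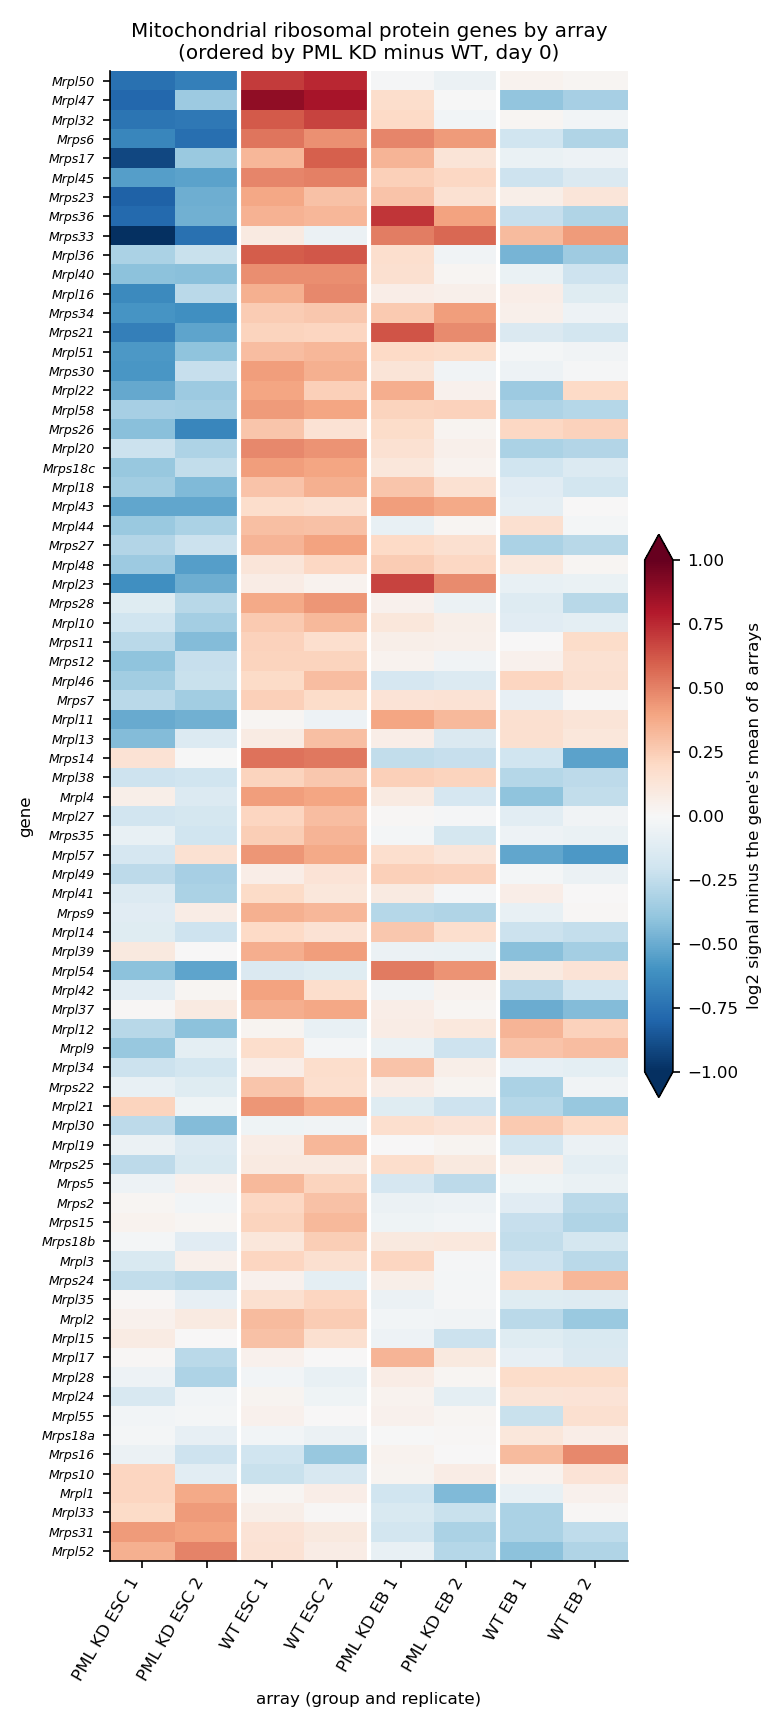
Signal of the 77 genes (rows, ordered by the difference between PML KD and WT at day 0) on the 8 arrays (columns), as log2 signal minus the mean of the gene over all arrays. The PML KD ESC columns are mostly blue (below the mean) and the WT ESC columns mostly red (above it), with 63 genes fallen at day 0, and the day 4 columns are paler.

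The largest falls were in genes of both subunits. Mrpl50, which encodes a large subunit protein particular to mitochondria, had 8.34 and 8.41 in PML KD ESCs, against 9.79 and 9.84 in WT ESCs. Both knockdown arrays were thus more than 1 log2 unit below both WT arrays, and the difference was -1.44 ± 0.07 (limma adjusted p = 8.23e-06), a 2.71-fold lower signal. Mrpl47, the counterpart of bacterial L29 near the exit tunnel, had 7.68 and 8.11 in PML KD ESCs, against 9.36 and 9.30 in WT ESCs. Its difference was -1.43 ± 0.13. A second probe set of Mrpl47, dimmer over the arrays, gave -0.50, so the probe sets agreed in direction and not in size. Mrpl32, a large subunit protein that is matured by the mitochondrial m-AAA protease, had 7.82 and 7.83 in PML KD ESCs, against 9.16 and 9.22 in WT ESCs, a difference of -1.37 ± 0.09.

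Mrps6, the counterpart of bacterial S6 in the small subunit, had 9.48 and 9.38 in PML KD ESCs, against 10.67 and 10.58 in WT ESCs. The groups did not overlap, and the difference was -1.20 ± 0.08. Mrps17, the counterpart of bacterial S17, had 7.64 and 8.17 in PML KD ESCs, against 8.88 and 9.14 in WT ESCs, and its difference was -1.10 ± 0.17. The 2 knockdown arrays of Mrps17 stood further apart than those of Mrps6, which shows in its larger error. Mrpl45, a protein at the tunnel exit that faces the inner membrane, had 9.57 and 9.58 in PML KD ESCs, against 10.60 and 10.62 in WT ESCs. Its replicates were nearly equal, and the difference was -1.04 ± 0.07 (limma adjusted p = 1.99e-05). These 6 genes were the members whose signal fell by 2-fold or more, as did 595 of all 19938 genes. In the authors' workbook values Mrps17 also fell, by 0.55.

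Mrps23, particular to the mitochondrial small subunit, followed with -0.99 ± 0.11, and with -0.34 in the workbook values. The falls were spread over the particle. Of the 50 large subunit genes 39 fell and 1 rose, with a median of -0.41, and of the 26 small subunit genes 23 fell and 1 rose, with a median of -0.49. By origin, 21 of 29 large subunit genes with a bacterial counterpart fell, as did 18 of 21 that are particular to mitochondria. In the small subunit the same counts were 14 of 16 and 9 of 10. Mrpl58, a peptidyl-tRNA hydrolase built into the large subunit, fell by 0.75 on the log2 scale. Mrps30, a large subunit protein despite its name, fell by 0.80. Mrpl12, which forms part of the stalk that binds translation factors, fell by 0.32, a call lost without PML KD ESC array 2 (-0.26) or WT ESC array 1 (-0.27).

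The 3 paralogs of bacterial S18 were measured separately. Mrps18c, which sits in the small subunit, had 8.91 and 9.04 in PML KD ESCs, against 9.71 and 9.69 in WT ESCs. It fell by 0.72. Mrps18b, also of the small subunit, had 11.22 and 11.12 in PML KD ESCs, against 11.36 and 11.48 in WT ESCs, and fell by 0.25, a call lost without PML KD ESC array 2 (-0.20) or WT ESC array 2 (-0.19). Mrps18a, which is part of the large subunit, had 10.36 and 10.30 in PML KD ESCs, against 10.35 and 10.32 in WT ESCs. Its arrays overlapped, its difference of -0.01 ± 0.07 did not pass (limma adjusted p = 0.949), and it passed as a fall of 0.20 in the values as deposited and of 0.42 after the shift to a common median. Whether the paralogs differ from each other was not tested.

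The 2 rises were in Mrpl52, a large subunit protein particular to mitochondria, and Mrps31, its equivalent in the small subunit. Mrpl52 had 9.66 and 9.80 in PML KD ESCs, against 9.45 and 9.38 in WT ESCs, a difference of 0.32 ± 0.09. Mrps31 had 10.39 and 10.36 in PML KD ESCs, against 10.10 and 10.06 in WT ESCs, a difference of 0.29 ± 0.07. Neither rise passed as deposited, Mrpl52 did not pass without PML KD ESC array 2 (0.25) or either WT ESC array (0.28 and 0.35), Mrps31 did not pass without PML KD ESC array 1 (0.28) or WT ESC array 2 (0.27), and after the shift to a common median the differences were -0.03 for Mrpl52 and -0.11 for Mrps31. In the workbook values both rises passed, at 0.99 for Mrpl52 and 0.34 for Mrps31. Mrps31 lies on chromosome 8 and Mrpl52 on chromosome 14, the only chromosomes whose brighter genes had a median difference above 0 at day 0, 0.16 and 0.08. Over the 5 members on these chromosomes 2 rose and 2 fell, and over the other 72 members 61 fell and 0 rose. An unadjusted limma p under 0.05, in either direction, was reached by 64 of the 72, against 10156 of all 19938 genes. The part of these chromosomes in the 2 rises was not tested.

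**Figure D2:**
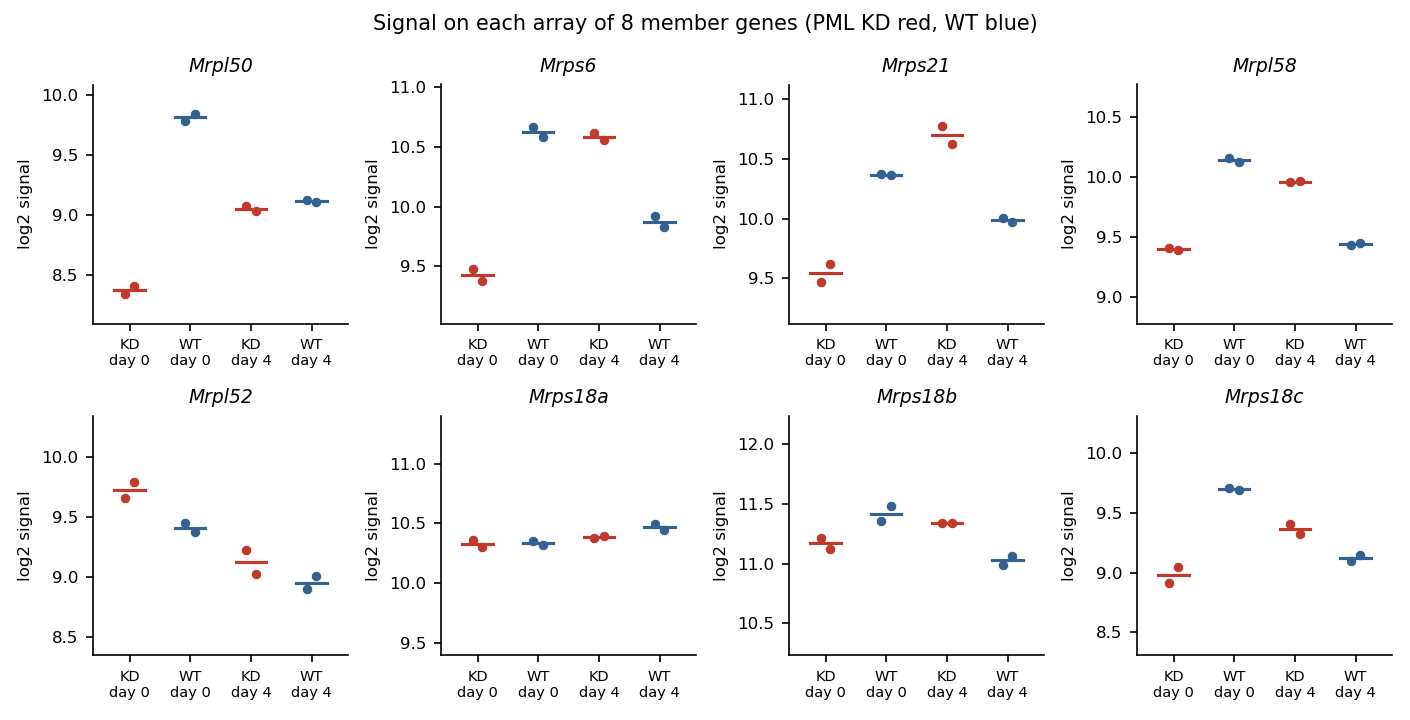
Log2 signal of 8 genes on each array (points, 2 per group) with the mean of the group (lines), PML KD left of WT at each day; every panel spans 2 log2 units. Mrpl50, Mrps6, Mrps21, Mrpl58 and Mrps18c are low in PML KD ESCs, Mrpl52 is high there, and Mrps18a stays within 10.30 and 10.50 on all 8 arrays.

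At day 4 more of the genes were higher than lower in the knockdown. Between PML KD and WT EBs, 25 of the 77 genes rose, 4 fell and 48 did not pass. Over all genes tested 17.3% rose and 10.1% fell, 27.4% in all. The median difference was 0.17 over the members and 0.04 over all genes. Both PML KD arrays lay above both WT arrays in 47 members, against 37.0% of all genes, and below both in 16, against 25.9%. No member differed by 2-fold or more, while of all 19938 genes 231 rose and 119 fell by that much. Over the members the split became 32 risen and 2 fallen in the values as deposited, and 42 risen and 0 fallen after the shift to a common median. Over all genes it became 3354 risen and 2351 fallen as deposited and 5028 risen and 1242 fallen after the shift, against 3456 and 2010 here. Without the PML KD ESC arrays in the fit, 26 members rose and 4 fell, and over all genes 3477 rose and 2025 fell. Fewer members, and fewer of all genes, passed when any 1 of the 4 day 4 arrays was left out. The median over members was then 0.15 to 0.21, and that over all genes 0.03 to 0.05. The number of members that changed, 29, became 19 in the authors' workbook values and 44 with an intensity trend in limma. Over all genes 3025 rose and 2805 fell among 24408 in the workbook values, and 4018 rose and 2437 fell with the trend.

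Mrps21, the counterpart of bacterial S21, showed one of the largest rises. It had 10.78 and 10.62 in PML KD EBs, against 10.01 and 9.97 in WT EBs, without overlap. Its difference was 0.71 ± 0.08 (limma adjusted p = 7.75e-04). Mrps6 had 10.61 and 10.55 in PML KD EBs, against 9.92 and 9.82 in WT EBs. Its rise was again 0.71 ± 0.08, whereas it had fallen by 1.20 at day 0. Mrpl57, a small large-subunit protein particular to mitochondria, had 8.02 and 7.97 in PML KD EBs, against 7.33 and 7.27 in WT EBs, and rose by 0.69 ± 0.10. The workbook values gave 1.10 for Mrps6 at day 4.

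Mrpl23, the counterpart of bacterial L23 at the exit tunnel, rose by 0.65 ± 0.09, and its second probe set gave 0.61. Mrpl58 had 9.96 and 9.97 in PML KD EBs, against 9.43 and 9.45 in WT EBs, a rise of 0.52 ± 0.06 with nearly equal replicates. Mrpl37 and Mrpl38, both particular to the mitochondrial large subunit, rose by 0.51 and 0.50. In the workbook values Mrpl37 had 0.20 and did not pass, and Mrpl38 had 0.32. Mrpl45 rose by 0.40, Mrps18b by 0.31 and Mrps18c by 0.24, and the calls of both Mrps18 genes were lost without either PML KD EB array or without WT EB array 1, at 0.28 to 0.32 for Mrps18b and 0.20 to 0.28 for Mrps18c. That of Mrps18c was also lost without WT EB array 2 or either WT ESC array. Mrps18a at -0.09, Mrpl12 at -0.20 and Mrps30 at 0.08 did not pass.

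The 4 falls at day 4 were in Mrpl9 (-0.44 ± 0.11) and Mrps16 (-0.38 ± 0.10), counterparts of bacterial L9 and S16, in Mrpl46 (-0.34 ± 0.08), and in Mrps9 (-0.26 ± 0.08), the counterpart of bacterial S9. Mrpl9 had 8.79 and 8.64 in PML KD EBs, against 9.14 and 9.16 in WT EBs. The arrays of Mrpl9 did not overlap. Over all members 0 or 1 fall passed when any 1 of the 4 day 4 arrays was left out, and each of the 4 calls above was lost without either PML KD EB array. After the shift to a common median none of the 4 passed, at -0.30 for Mrpl9, -0.16 for Mrps16, -0.24 for Mrpl46 and -0.10 for Mrps9. In the workbook values Mrps16 had -0.19, Mrpl46 -0.40 and Mrps9 -0.25, and none of these passed.

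Markers of other cell types moved with this comparison. All 10 visceral endoderm markers fell in PML KD EBs, and their summed signal lay at 13.95 to 14.01 there, against 15.62 to 15.64 in WT EBs. Of 5 trophectoderm markers 4 rose and 0 fell, with a summed signal of 11.69 to 11.73 in PML KD EBs, against 10.33 to 10.36 in WT EBs. Of 10 ESC markers 5 rose and 2 fell, at 15.24 to 15.26 in PML KD EBs and 15.06 to 15.08 in WT EBs. Of 5 primitive streak and mesoderm markers 1 rose and 2 fell, with a summed signal of 10.11 on both PML KD EB arrays, against 11.13 to 11.15 in WT EBs. Of 6 fibroblast markers 3 rose and 1 fell, at 11.83 to 11.95 in PML KD EBs and 12.03 to 12.05 in WT EBs. The fall was in Pdgfra, the brightest of the 6 in both EB groups, by 0.93. Col1a2 rose by 2.10, Postn by 0.80 and Col1a1 by 0.52, so the summed signal and the counts went opposite ways. The part of these cell types in the members' differences was not tested.

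The day 0 and day 4 comparisons share no arrays. Of the 63 genes that fell at day 0, 24 rose at day 4, which is 38.1% of the 63 and 96.0% of the 25 that rose. Mrpl46 and Mrps9 fell at both days, and 37 of the 63 did not pass at day 4. Over all genes, 1519 of the 5379 that fell at day 0 rose at day 4, 28.2% of them and 44.0% of the 3456 that rose. Among all 77 members 32.5% rose at day 4, beside the 38.1%, and 81.8% fell at day 0, beside the 96.0%. Whether the fall and the rise are linked gene by gene was not tested. The remaining rise at day 4 was in Mrpl3, the counterpart of bacterial L3, which had -0.24 at day 0 and did not pass there. Mrpl50, with the largest fall at day 0, had 9.08 and 9.03 in PML KD EBs, against 9.13 and 9.11 in WT EBs, a difference of -0.06 that did not pass.

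**Figure D3:**
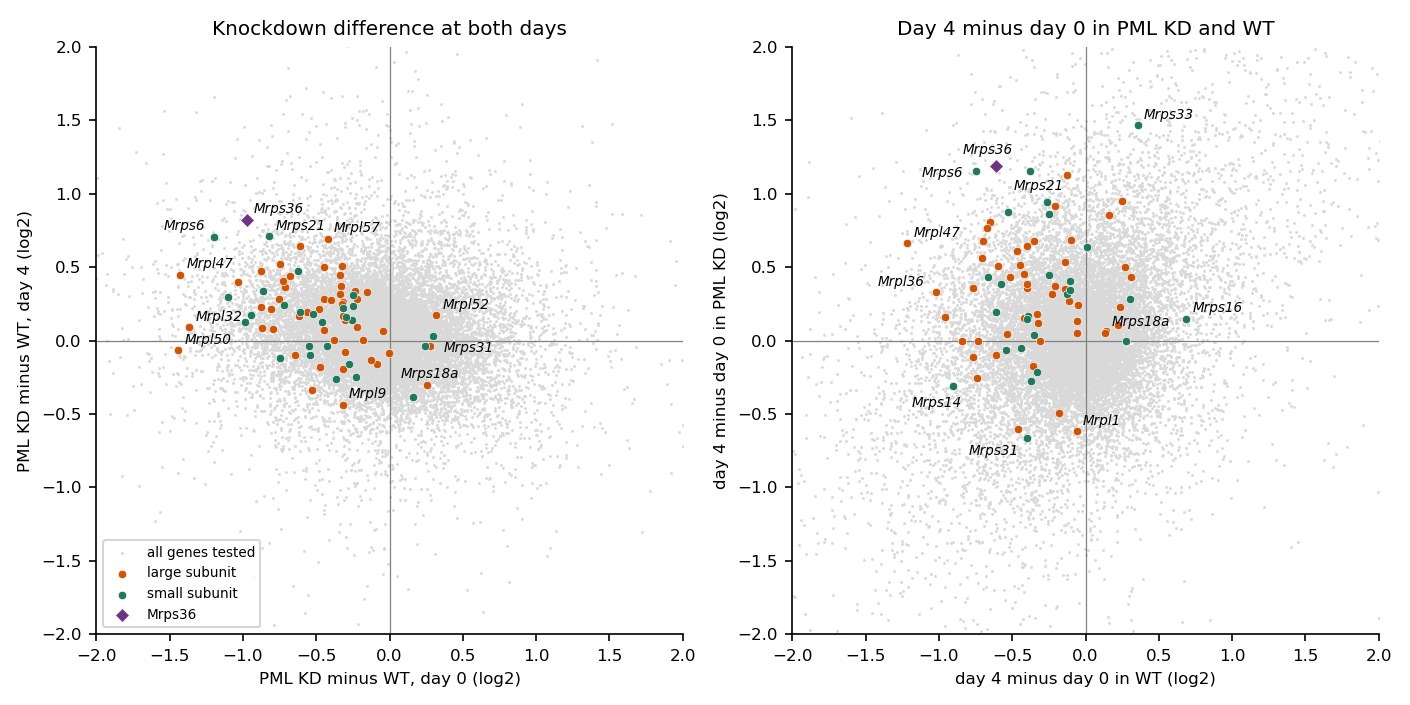
Differences (log2) of large subunit genes (orange), small subunit genes (green) and Mrps36 (purple) over all genes tested (grey); the axes end at 2 log2 units either way, so more extreme genes are not drawn. Left, PML KD minus WT at day 0 (horizontal) and day 4 (vertical), where 71 members lie left of 0 and 56 above 0; right, day 4 minus day 0 in WT (horizontal) and in PML KD (vertical), where 64 members lie left of 0 and 60 above 0.

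Between day 0 and day 4 most changed members were higher at day 4 in the samples labelled PML KD and lower at day 4 in WT. In PML KD 43 of the 77 genes rose between day 0 and day 4, 6 fell and 28 did not pass, with a median difference of 0.33 (day 4 minus day 0). Both day 4 arrays lay above both day 0 arrays in 53 members, against 41.0% of all genes, and below both in 13, against 31.1%. In WT cells 6 rose, 47 fell and 24 did not pass, with a median of -0.36. Here both day 4 arrays lay above both day 0 arrays in 12 members, against 29.6% of all genes, and below both in 58, against 40.6%. Over all genes tested 26.9% rose and 19.4% fell in PML KD, 46.3% in all, with a median of 0.04. In WT 17.4% rose and 26.2% fell, 43.6% in all, with a median of -0.05. The split over all genes moved with the scaling, to 4847 risen and 5033 fallen in PML KD and 4849 risen and 5097 fallen in WT as deposited, and to 6290 risen and 3134 fallen in PML KD and 2243 risen and 7513 fallen in WT after the shift. Members kept the opposite directions: 46 rose and 5 fell in PML KD and 1 rose and 50 fell in WT as deposited, and 53 rose and 3 fell in PML KD and 1 rose and 64 fell in WT after the shift. In the authors' workbook values 31 of 75 members rose and 9 fell in PML KD, and 3 rose and 41 fell in WT. Over the 24408 genes there 6197 rose and 6574 fell in PML KD, and 5863 rose and 6666 fell in WT. Without the PML KD ESC arrays in the fit, 8 members rose and 48 fell in WT, and over all genes 3540 rose and 5267 fell.

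These 2 comparisons share no arrays either. Of the 47 genes that fell in WT, 24 rose in PML KD (51.1% of the 47 and 55.8% of the 43), 4 fell in both PML KD and WT (Mrpl52, Mrps31, Mrps5 and Mrps9) and 19 did not pass in PML KD. Over all genes 1360 of the 5227 that fell in WT rose in PML KD, 26.0% of them and 25.3% of the 5367 that rose. Among all 77 members 55.8% rose in PML KD, beside the 51.1%, and 61.0% fell in WT, beside the 55.8% of the 43. Mrps33, of the mitochondrial small subunit, rose most in PML KD: it had 10.08 and 10.14 in PML KD EBs, against 8.46 and 8.82 in PML KD ESCs, a change of 1.47 ± 0.12, and its second probe set gave 1.29. In WT the same gene had 9.88 and 9.99 in EBs, against 9.66 and 9.50 in ESCs, a rise of 0.36 ± 0.12 that did not pass without any 1 of the 4 WT arrays (0.28 to 0.43) or without either PML KD EB array. Mrps6 rose by 1.16 in PML KD and fell by 0.75 in WT, so that its PML KD EB arrays and its WT ESC arrays lay close together, at 10.55 to 10.61 and 10.58 to 10.67. The workbook values gave -1.26 for Mrps6 in WT.

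In WT the largest falls were in Mrpl47 (-1.22 ± 0.13) and in Mrpl36 (-1.02 ± 0.09), the counterpart of bacterial L36. The second, dimmer probe set of Mrpl47 gave -0.10 in WT and did not pass. Mrpl36 had 8.71 and 8.82 in WT EBs, against 9.78 and 9.80 in WT ESCs. Its day 4 arrays were both about 1 log2 unit below those of day 0, while the workbook values gave -0.43. Mrpl57 fell by 0.96, Mrps14, the counterpart of bacterial S14, by 0.90, Mrpl37 by 0.84, and Mrpl20, the counterpart of bacterial L20, and Mrpl39, particular to mitochondria, each by 0.77, and the workbook values gave -0.44 for Mrpl39. The 6 rises in WT were in Mrps16 (0.69 ± 0.10, but 0.23 and not passed in the workbook values), Mrps33, Mrpl12 (0.31), Mrps24 (0.30), Mrpl30 (0.27) and Mrpl54 (0.25). After the shift to a common median Mrpl12, Mrps24, Mrpl30 and Mrpl54 were below 0 in WT, so their direction there depends on the scaling. Each of these 4 calls was also lost without at least 2 of the single WT arrays.

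In PML KD the rises after that of Mrps33 were in Mrps36 (1.19), Mrps6 (1.16), Mrps21 (1.15), Mrpl23 (1.13), Mrpl54 (0.95), Mrps34 (0.94) and Mrpl43 (0.92), the last 3 particular to mitochondria. The workbook values gave 0.49 for Mrps34. Mrpl23 had 10.15 and 9.95 in PML KD EBs, against 8.86 and 8.98 in PML KD ESCs, without overlap. The 6 falls were in Mrps31 (-0.66), Mrpl1 (-0.62), Mrpl52 (-0.60), Mrpl33 (-0.49), Mrps9 (-0.27) and Mrps5 (-0.22). The workbook values gave -1.06 for Mrpl52. The call of Mrps5 was lost without any 1 of the 8 arrays, and that of Mrps9 without PML KD ESC array 2 or either PML KD EB array. Mrpl33, the counterpart of bacterial L33, lost its call without PML KD ESC array 2 or PML KD EB array 2. Mrpl1, the counterpart of bacterial L1, had 9.46 and 9.22 in PML KD EBs, against 9.87 and 10.04 in PML KD ESCs. Its arrays did not overlap. Beside these changes, all 10 visceral endoderm markers rose over time in both PML KD and WT, to a summed signal of 13.95 to 14.01 in PML KD EBs, against 10.61 to 10.67 in PML KD ESCs, and to 15.62 to 15.64 in WT EBs, against 11.09 to 11.18 in WT ESCs. Of 10 ESC markers 9 fell over time in PML KD and 9 in WT. Of 5 trophectoderm markers 4 rose in PML KD, to 11.69 to 11.73 in PML KD EBs, against 9.86 to 9.90 in PML KD ESCs, and 3 rose in WT, to 10.33 to 10.36 in WT EBs, against 9.90 to 9.95 in WT ESCs. Of 5 primitive streak and mesoderm markers 4 rose in PML KD and 2 in WT, and of 6 fibroblast markers 5 rose in PML KD and 4 in WT. The part of these cell types in the changes over time was not tested.

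The difference between PML KD and WT in the change over time was tested directly, as the change in PML KD minus the change in WT. It uses all 4 groups and so shares its arrays with every comparison above. It was above 0 and passed in 58 of the 77 members, and below 0 and passed in 2. Over all genes 27.4% passed above 0 and 14.7% below 0, 42.2% in all. The median was 0.59 over the members and 0.09 over all genes, and the other scalings moved the median over all genes to -0.11 (as deposited) and 0.23 (after the shift). All genes then split into 5034 above and 5055 below 0 as deposited and 8004 above and 1547 below after the shift, against 5471 and 2933 here, and the members into 61 above and 0 below as deposited and 70 above and 0 below after the shift. In the authors' workbook values 40 of 75 members passed above 0 and 2 below, against 4979 above and 4696 below of 24408 genes. Mrps6 had the largest difference of changes, 1.91 ± 0.11 (limma adjusted p = 2.20e-05), followed by Mrpl47 with 1.88 ± 0.19. The second probe set of Mrpl47 gave 0.68, which passed. Mrps21 had 1.53 ± 0.12. Mrpl45 had 1.44, Mrpl58 1.27, Mrps18c 0.97, Mrps30 0.87 and Mrps18b 0.56, and all 5 passed. Mrpl12 at 0.13 and Mrps18a at -0.08 did not pass. The 2 members below 0 were Mrpl1 with -0.56 ± 0.14 and Mrps16 with -0.54 ± 0.13. Neither passed as deposited, at -0.36 for Mrpl1 and -0.26 for Mrps16, or after the shift, at -0.015 for Mrpl1 and 0.085 for Mrps16, and the workbook values gave -0.48 for Mrpl1, which passed, and -0.023 for Mrps16, which did not.

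Mrps36, the gene of the dehydrogenase subunit, gave different values in the deposited tables. On the probe sets it had 6.74 and 7.04 in PML KD ESCs, against 7.87 and 7.85 in WT ESCs, and 8.23 and 7.92 in PML KD EBs, against 7.29 and 7.22 in WT EBs. Its differences were -0.97 ± 0.13 at day 0 and 0.82 ± 0.13 at day 4, and it changed by 1.19 over time in PML KD. A second probe set gave -1.11 at day 0 and 0.97 at day 4. In the authors' workbook of values over constitutive exons, quantile normalized in the same way, the differences were 0.15 at day 0, 0.21 at day 4 and -0.29 over time in PML KD, none of which passed. The same workbook gave -1.36 at day 0 for Mrpl50, -1.83 for Mrpl32 and -1.56 for Mrps6. In all, 8 members had 2 probe sets, and all pairs had the same direction at day 0. In other comparisons the pairs of Mrpl51 and Mrps5 differed in sign. Mrpl51 had 0.22 and -0.09 at day 4, and 0.68 and -0.14 over time in PML KD. Mrps5 had -0.16 and 0.02 at day 4, and -0.22 and 0.04 over time in PML KD. Probe sets of these 8 members may also detect near-identical copies elsewhere in the genome.

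Each array gave the same order over the whole set. The median deviation of the members from their own means over the 8 arrays was -0.25 and -0.23 in PML KD ESCs, against 0.23 and 0.24 in WT ESCs. At day 4 it was 0.09 and 0.02 in PML KD EBs, against -0.08 and -0.07 in WT EBs. WT ESCs were thus highest and PML KD ESCs lowest, with both EB groups between them, and in each pair of groups the arrays did not overlap. Over all genes the same median ran only between -0.06 and 0.03. With all genes divided into 10 equal bins by mean signal, the upper 4 bins held 15, 27, 24 and 5 of the members. In them 37.4% to 40.6% of all genes fell at day 0, and the median difference over members in each of these bins was between -0.62 and -0.25, against -0.09 to -0.08 over all genes in them.

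Other parts of mitochondrial gene expression were set beside the mitoribosome, from lists of their genes. The partner complexes of the mitoribosome, the nuclear-encoded subunits of oxidative phosphorylation, were measured in 81 genes. Of these 50 fell and 8 rose at day 0, with a median of -0.28, and 38 rose and 5 fell at day 4, with a median of 0.23. Over time 36 rose and 10 fell in PML KD, and 9 rose and 51 fell in WT. The cytosolic ribosomal proteins, whose probe sets can share targets with many pseudogenes, were measured in 61 genes. Of these 33 fell and 3 rose at day 0, with a median of -0.21, and 2 rose and 14 fell at day 4, with a median of -0.07. Over time 28 rose and 8 fell in PML KD, and 11 rose and 13 fell in WT. Over all genes 17.0% rose and 27.0% fell at day 0, and 17.3% rose and 10.1% fell at day 4. Over time 26.9% of all genes rose and 19.4% fell in PML KD, and 17.4% rose and 26.2% fell in WT. The cytosolic ribosomal shares over time in WT, 18.0% risen and 21.3% fallen, were thus near those over all genes. In the difference of changes the medians were 0.52 for oxidative phosphorylation, 0.19 for cytosolic ribosomal proteins and 0.59 for the mitoribosomal proteins. Whether these lists differ from each other was not tested.

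**Figure D4:**
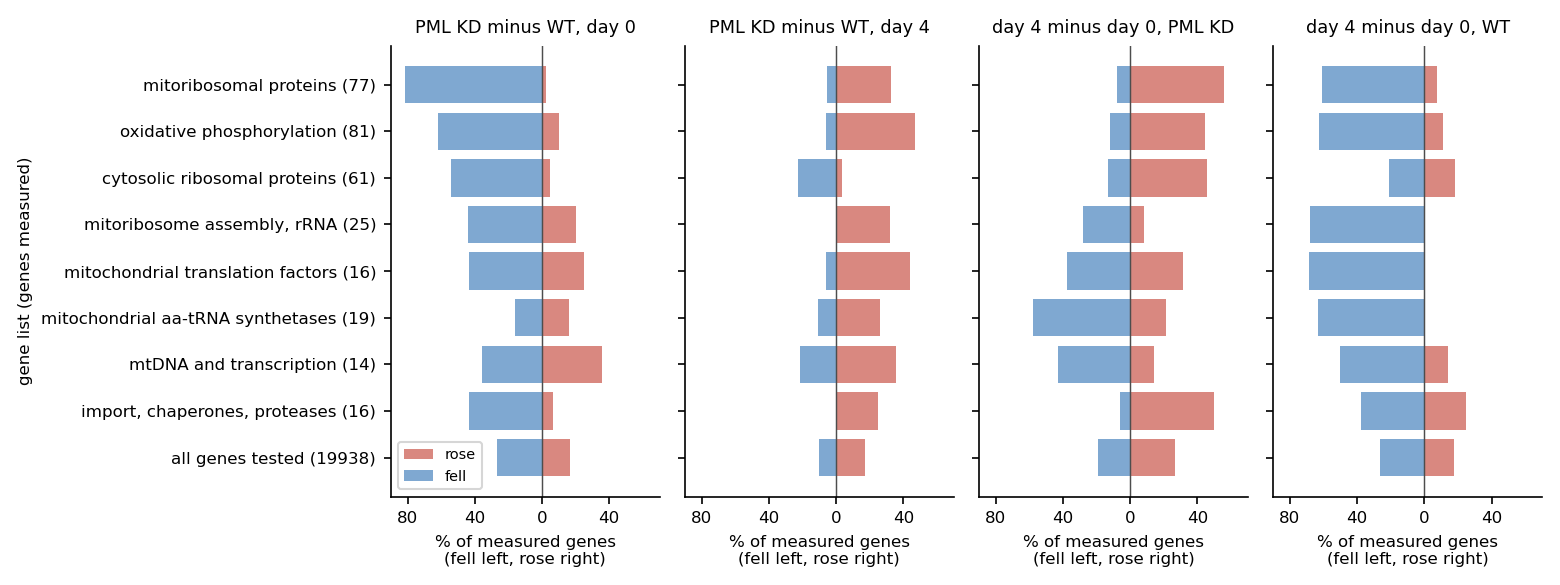
Share of the measured genes of each list (rows, number of genes in brackets) that fell (blue, left) or rose (red, right) in 4 comparisons, in percent. The mitoribosomal proteins have 81.8% fallen at day 0 and 55.8% risen over time in PML KD, and all genes tested are given in the lowest row.

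Lists of the factors that build and serve the mitoribosome were counted in the same way, beside 27.0% of all genes fallen and 17.0% risen at day 0. At day 4 17.3% of all genes rose and 10.1% fell, and over time in WT 17.4% rose and 26.2% fell. Of 25 genes for mitoribosome assembly and ribosomal RNA maturation, 11 fell and 5 rose at day 0 (median -0.22), 8 rose and 0 fell at day 4, and 17 fell and 0 rose over time in WT. Rbfa, a small subunit assembly factor, fell by 0.78 at day 0, while Mettl17, another factor of small subunit assembly, rose by 0.85. Of 16 translation factors 7 fell and 4 rose at day 0. Tufm, the elongation factor that delivers aminoacyl-tRNA, fell by 0.72, and Guf1, a translation factor of the elongation factor family, rose by 0.76. Of 19 genes for mitochondrial aminoacyl-tRNA synthetases and amidotransferase subunits 3 fell (15.8%) and 3 rose at day 0, with a median of 0.06, so the fallen share was below that over all genes. Gatc, an amidotransferase subunit, fell by 0.95 there and had a difference of changes of 1.91, and Iars2, the isoleucyl-tRNA synthetase, rose by 0.69. Of 14 genes for mitochondrial DNA maintenance and transcription 5 fell and 5 rose at day 0, with a median of 0.10 and differences from -0.91 to 0.62. Among the falls were those of Tfb2m by 0.91 and of Tfam by 0.85, which act in mitochondrial transcription. Of 16 genes for import, chaperones and proteases 7 fell and 1 rose. Of 4 mitoribosomal proteins with other names, Gadd45gip1 fell by 0.25 and Chchd1 by 0.26, while Dap3 at -0.19 and Ptcd3 at 0.00091 did not pass.

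Of 11 regulators of mitochondrial biogenesis, 4 fell and 1 rose at day 0. Myc, a growth-promoting transcription factor, fell by 2.00 at day 0 and rose by 1.11 at day 4, and over time it rose by 1.22 in PML KD and fell by 1.89 in WT. The binding factors of the motifs above had smaller differences at day 0: Nrf1 rose by 0.25, Gabpa of the ETS family fell by 0.33, and Yy1 at -0.07 did not pass. Max, the binding partner of Myc, fell by 0.73 at day 0 and by 0.26 at day 4. The part of these regulators in the members' differences was not tested.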

How the data were processed

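RNA of 8 samples was measured on Affymetrix MoGene 1.0 ST arrays, 2 arrays in each of 4 groups. The array table holds linear intensity values for 35556 probe sets, summarised by the authors. The Transcriptome Analysis Console is named in the submitters' processing notes; neither its version nor how it corrected background or normalized is stated in the sources used here. A second deposited table, a workbook, holds log2 values per Ensembl gene over constitutive exons, per the file headers; it served as an alternative source, holds 75 of the members, and its 4 columns of group means were not used.

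The intensity values were turned to log2 and quantile normalized over the 8 arrays. Probe sets with 1 platform symbol (21789) gave 19938 genes, the brightest probe set standing for a gene. The array medians before normalization were 169 to 199, and the SD of a single array within groups was 0.107 to 0.129 (log2) over all genes and 0.0659 to 0.127 over members. One model with a mean per group was fitted to the 8 arrays (limma 3.58.1, R 4.3.3; lmFit and eBayes), which leaves 4 residual degrees of freedom. P-values were adjusted by Benjamini and Hochberg's method over the 19938 genes, with 0.05 as threshold. The code was tested on simulated data.

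The members and gene lists were chosen with earlier results of these data known. Named members are the 8 largest rises and falls per comparison that passed with no overlap between the arrays of the groups, the 4 largest each way in the difference of changes, and a fixed set (the Mrps18 paralogs, Mrpl12, Mrpl45, Mrpl58, Mrps30 and Mrps36). From other lists up to 3 genes with the smallest adjusted p per comparison are named. Mrpl3, Mrps11 and Dap3 were named after their values were seen. Alternatives covered the scaling, the source of values, dim genes, probe sets per gene, the samples in the fit, the variance model, the replicate number and each array left out. Arrays were left out of the fit and not of the quantile normalization. Promoters and motif positions came from RefSeq sequences of build GRCm38.p6.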

Additional observations from a re-analysis of the deposited data

Results flagged for a closer look

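The change from day 0 to day 4 differed between PML KD and WT in 60 of the 77 members by a direct test of the difference (limma), and this count led to a closer look at the members with the largest differences. Mrps6 had 1.91, Mrpl47 1.88, Mrps36 1.80 and Mrps21 1.53, each with a rise in PML KD and a fall in WT on the log2 scale. The second probe set of Mrpl47 gave 0.68, with -0.10 in WT that did not pass. The values of Mrps36 rest on probe sets whose result the workbook did not repeat. On the other side, Mrpl1 had -0.56, with a fall in PML KD of 0.62 and a value of -0.06 in WT that did not pass. The difference for Mrpl1 did not pass as deposited (-0.36) or after the shift to a common median (-0.015). Mrps16 had -0.54, with 0.15 in PML KD, which did not pass, and a rise of 0.69 in WT. For Mrps16 the difference did not pass as deposited (-0.26), was 0.085 after the shift and -0.023 in the workbook values, where the change in WT was 0.23 and did not pass either. All of these differences include the PML KD ESC arrays, whose Y-linked signal is far below that of the PML KD EB arrays, so it is in doubt whether both come from the same line.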

How the results depend on the processing

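The precision is limited by 2 arrays per group and by a scaling that moves the median of all genes. The median over members kept its sign in every alternative of each comparison, between -0.73 and -0.35 at day 0, 0.12 and 0.32 at day 4, 0.20 and 0.46 over time in PML KD, -0.69 and -0.34 over time in WT, and 0.53 and 1.08 in the difference of changes. Of 89 results for named members, 53 kept their call in every alternative. In 12 the sign turned in an alternative, with a call in the main setting or in that alternative. Turns of sign without a call in either were not counted. The number of members that changed at day 4, 29, became 19 in the workbook values and 44 with an intensity trend. With each array left out in turn, the number that changed ran from 49 to 65 at day 0, 16 to 30 at day 4, 37 to 48 over time in PML KD, 39 to 56 in WT, and 48 to 59 in the difference of changes. Shifting the arrays to a common median gave -0.034 for Mrpl52 and -0.11 for Mrps31 at day 0, and, over time in WT, -0.051 for Mrpl12, -0.049 for Mrps24, -0.11 for Mrpl30, -0.048 for Mrpl54 and -0.27 for Mrps18a. The same shift gave 0.0003975 for Mrps5 over time in PML KD, and 0.085 for Mrps16 and 0.55 for Mrps18a in the difference of changes. The workbook gave 0.15 for Mrps36 at day 0, and -0.29 for Mrps36 and 0.070 for Mrps5 over time in PML KD. The cause of these differences was not tested. With the replicate number as a block, 64 members changed at day 0, 25 at day 4, 50 over time in PML KD, 51 in WT and 59 in the difference of changes, against 65, 29, 49, 53 and 60 without it. Over all genes the block gave 3312 risen and 5238 fallen at day 0, against 3380 and 5379. At day 4 it gave 3298 and 1881, against 3456 and 2010. Over time it gave 5245 and 3757 in PML KD, against 5367 and 3865. In WT it gave 3376 and 5125, against 3472 and 5227. In the difference of changes it gave 5328 above and 2847 below 0, against 5471 and 2933. Arrays with the same number did not deviate together: the correlation of their deviations from the group means lay between -0.07 and 0.05 over the 6 pairs of groups.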
